A study of Mus musculus with 16 samples.

Results

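High-fat feeding of wild-type mice is described here across all genes of the liver, from 8 of the 16 libraries of a mouse liver RNA-seq series. The members were chosen by their labels: 4 libraries of wild-type (WT) liver on high-fat diet (HFD) and 4 of WT liver on chow. The series crosses genotype with diet in female mice, which were aged to 9 months on chow and then either stayed on chow or were fed the HFD, which is TD. 88137, over 12 weeks. The other 8 libraries come from mice that lack Arglu1 in hepatocytes (LKO) on the same diets, 4 libraries each, and the WT response is set beside theirs. All 16 libraries enter one fit with a shared estimate of the spread, so the LKO libraries also bear on which WT genes pass the test: leaving out 1 of them gave between 237 and 359 WT calls, against 294. Arglu1 encodes an arginine- and glutamate-rich coregulator of transcription and splicing, and its transcript measured 41.2 ± 2.62 CPM in WT liver on chow and 42.2 ± 1.7 CPM on HFD. Levels are given in CPM, counts scaled to the library's depth with TMM, which compare libraries and not genes, and ± is the SD over the 4 libraries of a group throughout. The Cre driver is not named in the labels, nor is it stated whether every library comes from its own animal. All errors and p-values therefore describe the spread between these libraries, which may be technical in part.

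TD. 88137 is a purified diet rich in milk fat and sucrose with added cholesterol, often called a Western diet. The liver balances its sterol supply through the SREBP-2 pathway: when sterols are scarce, the membrane-bound transcription factor SREBP-2 is carried to the Golgi by SCAP, cut, and sent to the nucleus, where it turns on the enzymes of cholesterol synthesis. When sterols are plentiful, INSIG proteins hold SCAP in the endoplasmic reticulum and these genes fall. Oxysterols meanwhile activate the LXR receptors, which raise the sterol exporters ABCG5 and ABCG8, a pair of half-transporters that secrete cholesterol into bile. Female mouse liver also has its own programme of sex-biased genes, set by the pattern of growth hormone release, in which urinary protein genes and several cytochromes P450 take part.

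In WT liver on HFD 12 of 19 genes of cholesterol synthesis fell, and the sterol exporters Abcg5 and Abcg8 rose, 2 of 12 sterol exporters and LXR targets. Of 26 major urinary protein genes and pseudogenes 10 rose, and 4 of 28 female-biased genes fell. Of 23 markers of lipid-associated macrophages 7 rose, as did 5 of 38 stellate cell and matrix genes, 3 of them fibrillar collagens. Without WT chow 4 the counts were 6, 4 and 2 for the Mup, macrophage and matrix genes, and that of the matrix genes was also 2 without WT HFD 1 or WT HFD 3 and 3 without WT chow 1. Of 29 periportal genes 6 fell, albumin among them (3 without WT chow 1, WT chow 2 or WT HFD 3). Of 14433 genes tested, 294 were called at an adjusted p below 0.05 (2.04%), with 140 higher (0.97%) and 154 lower (1.07%). Adjusted p-values throughout are from edgeR's quasi-likelihood test with Benjamini-Hochberg adjustment over all genes. A change of at least 2-fold was seen in 65 of the genes that rose and 43 of those that fell. The 4 HFD libraries stood wholly above the 4 chow libraries for 643 genes (4.46%) and wholly below them for 730 (5.06%). Together these were 9.51% of all genes. The median log2 fold change of all genes was 0.00758. The 294 calls became 155 without WT HFD 3, 182 without WT chow 4 and 193 without WT HFD 4, and 117 of them held in all 25 alternatives run.

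**Figure D1:**
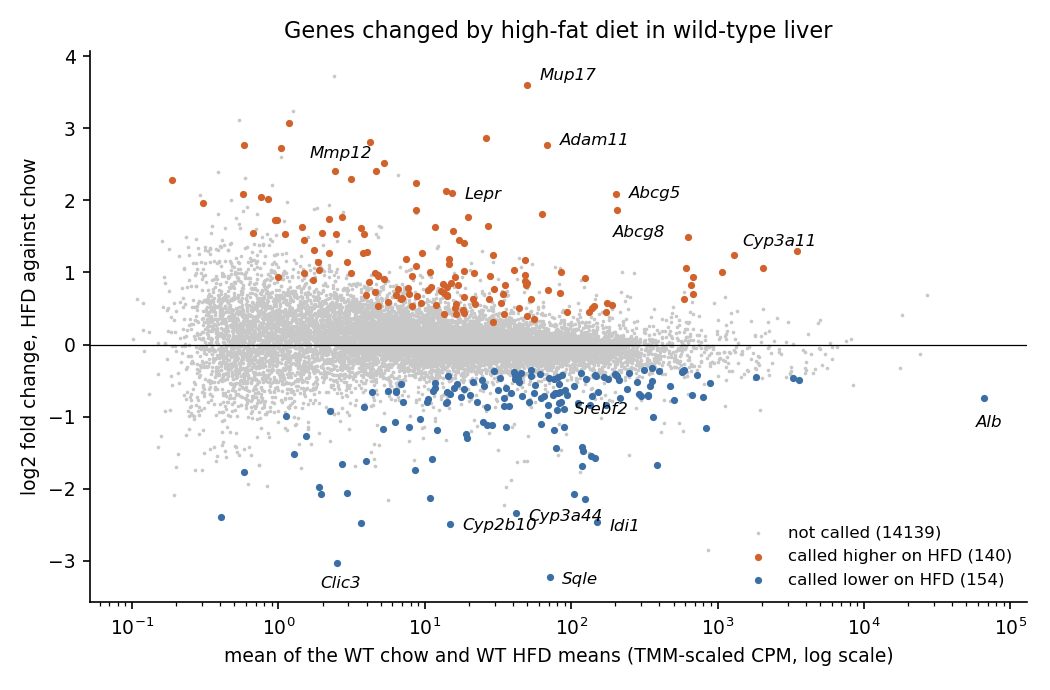
Fitted log2 fold change (HFD against chow, WT liver) of the 14433 genes tested, against the mean of the 2 group means in CPM on a log axis. The 140 genes called higher and the 154 called lower are coloured. Sqle, Clic3 and Idi1 lie among the lowest called points and Mup17 and Adam11 among the highest.

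The 8 WT libraries held between 19689661 and 24123730 counts. Depth did not differ detectably between the diets (exact two-sided permutation test, p = 0.9714, with 0.0286 the smallest p possible for 4 against 4). On the first principal component of the 8 libraries (28.46% of the variance) the chow libraries lay between -30.79 and -4.977 and the HFD libraries between 16.53 and 26. The second component (20.23%) set WT HFD 2 apart at 38.11. In that library several genes of sterol and fatty acid synthesis were higher than in the other HFD libraries. Hepatocyte markers (Alb, Apoa1, Ttr, Serpina1a and Cyp2e1 summed) ran from 84480 to 113800 CPM on chow and from 62020 to 68160 CPM on HFD. Alb was the larger part of this sum on both diets and the one of the 5 that was called. Muscle markers reached 25.27 CPM in WT HFD 4 and pancreas markers 16.19 CPM in WT HFD 3, against at most 0.881 and 7.007 CPM in the chow libraries. Prss2 and Cpa1 of the pancreas list were at 0 in every chow library. Red blood cell markers ran from 395 to 876 CPM on chow and from 299 to 382 CPM on HFD. The part of these other tissues in the results was not tested.

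Cholesterol synthesis had the largest share of genes called lower among the gene lists examined. Of the 19 genes described, 12 fell and none rose, with a median log2 fold change of -1.43. Of the 10 genes from acetyl-CoA to lanosterol 6 fell (median -1.50), and of the 9 genes after lanosterol 6 fell (median -1.23). The HFD and chow libraries did not overlap for 13 of the 19 genes, all lower on HFD. Across the alternatives run, between 9 and 17 of the 19 genes were called lower and none higher. The mean log2(CPM + 1) over the 19 genes was 6.76, 6.65, 7.34 and 7.14 in chow libraries 1 to 4 and 5.16, 6.13, 5.54 and 5.27 in HFD libraries 1 to 4. Every HFD library was thus below every chow library, and WT HFD 2 was nearest to them. Without WT HFD 2, 16 of the 19 genes were called lower and the median log2 fold change was -1.65.

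The promoters of genes that fell are shown with short letter patterns known from SREBP-regulated genes, of which they share CCAAT. SREBP binds sterol regulatory elements and is known to act together with NF-Y, which binds the CCAAT box. Each window below is the 250 bases before the transcription start in RefSeq (GRCm38.p6), which can differ from the start in GENCODE. Capitals mark CCAAT or its reverse complement ATTGG, and in Hmgcs1 also the match to the sterol regulatory element letters TCACNCCAC. Both strands were searched, and no match of CCAAT or TCACNCCAC overlaps another. The windows are chr13:8885356-8885605 (plus strand) for Idi1, chr13:119690101-119690350 (plus) for Hmgcs1, chr8:64733579-64733828 (minus) for Msmo1, chr5:114444019-114444268 (plus) for Mvk and chr1:169969206-169969455 (minus) for Hsd17b7. The window of Abcg5 (chr17:84683012-84683261, minus strand), which rose, is shown as well.
Idi1: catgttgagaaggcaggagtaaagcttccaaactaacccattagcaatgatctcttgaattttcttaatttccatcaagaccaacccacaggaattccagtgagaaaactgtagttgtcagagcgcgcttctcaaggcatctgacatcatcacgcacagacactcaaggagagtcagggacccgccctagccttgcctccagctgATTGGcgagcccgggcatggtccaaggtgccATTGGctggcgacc
Hmgcs1: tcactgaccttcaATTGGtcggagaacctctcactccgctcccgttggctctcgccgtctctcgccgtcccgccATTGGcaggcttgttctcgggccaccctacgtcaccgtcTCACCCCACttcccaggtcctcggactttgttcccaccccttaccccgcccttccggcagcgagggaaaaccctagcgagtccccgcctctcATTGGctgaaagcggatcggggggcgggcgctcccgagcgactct
Msmo1: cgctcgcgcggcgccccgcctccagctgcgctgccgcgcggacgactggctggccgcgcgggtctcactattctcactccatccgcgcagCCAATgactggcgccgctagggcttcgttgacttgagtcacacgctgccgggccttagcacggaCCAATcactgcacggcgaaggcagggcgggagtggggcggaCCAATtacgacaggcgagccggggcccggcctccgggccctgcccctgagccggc
Mvk: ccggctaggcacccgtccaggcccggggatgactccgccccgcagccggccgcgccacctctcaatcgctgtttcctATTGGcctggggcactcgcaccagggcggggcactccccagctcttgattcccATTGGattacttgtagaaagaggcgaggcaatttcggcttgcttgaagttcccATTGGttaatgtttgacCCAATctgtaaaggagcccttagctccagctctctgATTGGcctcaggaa
Hsd17b7: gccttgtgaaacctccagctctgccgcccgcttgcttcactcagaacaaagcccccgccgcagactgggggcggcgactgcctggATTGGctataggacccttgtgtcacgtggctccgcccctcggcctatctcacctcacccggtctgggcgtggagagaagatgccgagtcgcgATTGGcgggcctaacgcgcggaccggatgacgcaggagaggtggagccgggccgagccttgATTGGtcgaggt
Abcg5: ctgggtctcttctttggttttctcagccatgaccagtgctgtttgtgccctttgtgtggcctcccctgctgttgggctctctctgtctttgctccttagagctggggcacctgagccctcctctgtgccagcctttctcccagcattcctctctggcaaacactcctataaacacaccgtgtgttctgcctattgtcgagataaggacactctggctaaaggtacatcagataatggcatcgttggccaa
CCAAT was found 5 times in Mvk, 3 times each in Hmgcs1, Msmo1 and Hsd17b7 and 2 times in Idi1. The sterol regulatory element letters stood 137 bases before the start of Hmgcs1. Of the 19 cholesterol synthesis genes 16 had a window, and CCAAT was in at least 1 window of 15 of them (93.8%), against 40.5% of the 10923 tested genes with a window. It was in 4 of 9 sterol exporters and LXR targets with a window (44.4%) and in 8 of 14 tested Mup genes with one (57.1%). GGGCGG, the GC box bound by Sp1, was in 87.5% of the 16 genes against 60.3% of all. TCACNCCAC was in 1 of the 16, Hmgcs1 (6.25%), against 1.29% of all. Its core CACCCCAC, which lies within that same match in Hmgcs1, was also in 6.25%, against 3.37% of all. Of the other letters searched, CACGTG was in 18.8% of the 16 genes against 9.33% of all. AGGTCA was in 12.5% against 13.6%, and TTATGTAA in 0% against 0.677%. Of 12 genes of SREBP control and lipoprotein uptake with a window, 8 held CCAAT and 0 held TCACNCCAC. A match of letters describes the sequence and is not a measured binding site, and the absence of these letters from a window says nothing of the factor.

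The first enzymes of the pathway make mevalonate. Hmgcs1, HMG-CoA synthase, stood at 533, 425, 816 and 573 CPM in the chow libraries and at 216, 225, 158 and 141 CPM in the HFD libraries (log2 fold change -1.67, SE 0.273, adjusted p = 0.00425). No HFD library reached the lowest chow library. Mvk, mevalonate kinase, stood at 34.4, 19.2, 26.5 and 27.3 CPM on chow and 9.85, 14.9, 10.9 and 9.8 CPM on HFD (log2 fold change -1.24, SE 0.212, adjusted p = 0.00462), with no overlap.

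The isoprenoid steps that follow lead to squalene. Idi1, the isopentenyl diphosphate isomerase (chromosome 13, 8885501 to 8892451, plus strand, GRCm38), measured 243, 189, 351 and 236 CPM in the chow libraries and 36.5, 63.9, 49.3 and 35.2 CPM in the HFD libraries. Its log2 fold change was -2.46 (SE 0.234, adjusted p = 2.74e-05), and the highest HFD library was well below the lowest chow library. Fdft1, squalene synthase, measured 167, 129, 209 and 204 CPM on chow and 57.8, 74.2, 61.2 and 60.5 CPM on HFD (log2 fold change -1.48, SE 0.18, adjusted p = 0.000237). Sqle, squalene epoxidase and a rate-limiting step (chromosome 15, 59315077 to 59331192, plus strand), went from 101, 83.4, 187 and 144 CPM to 4.66, 25, 17.4 and 8.04 CPM (log2 fold change -3.23, SE 0.454, adjusted p = 0.00195). Its fall was the largest fitted among the genes called lower. Within the HFD group Sqle varied widely, and WT HFD 1 and WT HFD 2 were its lowest and highest libraries. Lss, lanosterol synthase, fell from 114 ± 51.4 to 42.5 ± 16.1 CPM (log2 fold change -1.43, SE 0.329, adjusted p = 0.0386). That call was lost without WT chow 3 or 4, WT HFD 1, 3 or 4, LKO chow 4 or LKO HFD 1 or 4 (adjusted p 0.0504 to 0.112).

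Among the other early members, Pmvk (phosphomevalonate kinase), Mvd (mevalonate diphosphate decarboxylase) and Fdps (farnesyl diphosphate synthase) had log2 fold changes of -1.10, -1.98 and -1.52 and did not pass the test (adjusted p = 0.136, 0.0747 and 0.14). In all 3 genes WT HFD 2 lay within the chow range. Without WT HFD 2 the log2 fold changes were -1.43, -2.83 and -2.11, and Mvd and Fdps passed (adjusted p = 0.0696, 0.00483 and 0.0411). Mvd, for example, stood at 52.6, 31.3, 73.5 and 71.8 CPM on chow and 6.25, 34.3, 9.93 and 7.9 CPM on HFD. Ggps1, which makes geranylgeranyl diphosphate for protein prenylation on a side branch, measured 9.85 ± 0.516 CPM on chow and 9.92 ± 0.382 CPM on HFD (log2 fold change 0.01, SE 0.091), and was the one member with no negative value.

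After lanosterol, the sterol ring is demethylated and its double bonds are rearranged. Cyp51, the lanosterol 14-alpha-demethylase, measured 178, 150.4, 274 and 209.8 CPM in the chow libraries and 30.3, 72.8, 47.8 and 33.5 CPM in the HFD libraries (log2 fold change -2.14, SE 0.285, adjusted p = 0.00086). Tm7sf2, a sterol C14 reductase, measured 133, 181, 161 and 219 CPM on chow and 54.8, 86.3, 62.8 and 55.6 CPM on HFD (log2 fold change -1.42, SE 0.175, adjusted p = 0.000237). Both enzymes act one after the other, and neither showed overlap between the diets. Msmo1, the C4 methylsterol oxidase (chromosome 8, 64718139 to 64733792, minus strand), measured 209.9, 116, 195 and 154 CPM on chow and 30.4, 54.3, 37.2 and 38.1 CPM on HFD (log2 fold change -2.08, SE 0.222, adjusted p = 7.95e-05). Hsd17b7, the ketoreductase of C4 demethylation, measured 103, 89.7, 137 and 96.5 CPM on chow and 46.3, 65, 34.1 and 41.6 CPM on HFD (log2 fold change -1.19, SE 0.168, adjusted p = 0.000818). The calls of Cyp51, Tm7sf2, Msmo1 and Hsd17b7 held in every alternative run, as did those of Hmgcs1, Mvk, Idi1, Fdft1 and Sqle.

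Smaller falls were fitted for Erg28, a scaffold of the C4 demethylation enzymes (66.9 ± 7.59 to 45.4 ± 5.67 CPM, log2 fold change -0.56, adjusted p = 0.0231), and Ebp, the sterol isomerase (236 ± 27.7 to 174 ± 14.1 CPM, log2 fold change -0.44, adjusted p = 0.0339). Either call was lost without WT chow 1, 3 or 4 or WT HFD 1, 3 or 4 (adjusted p 0.0533 to 0.0752 for Erg28 and 0.0513 to 0.114 for Ebp). The other late members described did not pass. Nsdhl, the C4 decarboxylase, had a log2 fold change of -1.61 (adjusted p = 0.0525), Dhcr7, which makes the last reduction of one branch, -1.23 (adjusted p = 0.0844), and Sc5d, the C5 desaturase, -0.55 (adjusted p = 0.375). Leaving out WT HFD 2, Nsdhl (-2.035, adjusted p = 0.0172) and Dhcr7 (-1.647, adjusted p = 0.0158) passed, and Sc5d (-0.7265, adjusted p = 0.275) did not.

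**Figure D2:**
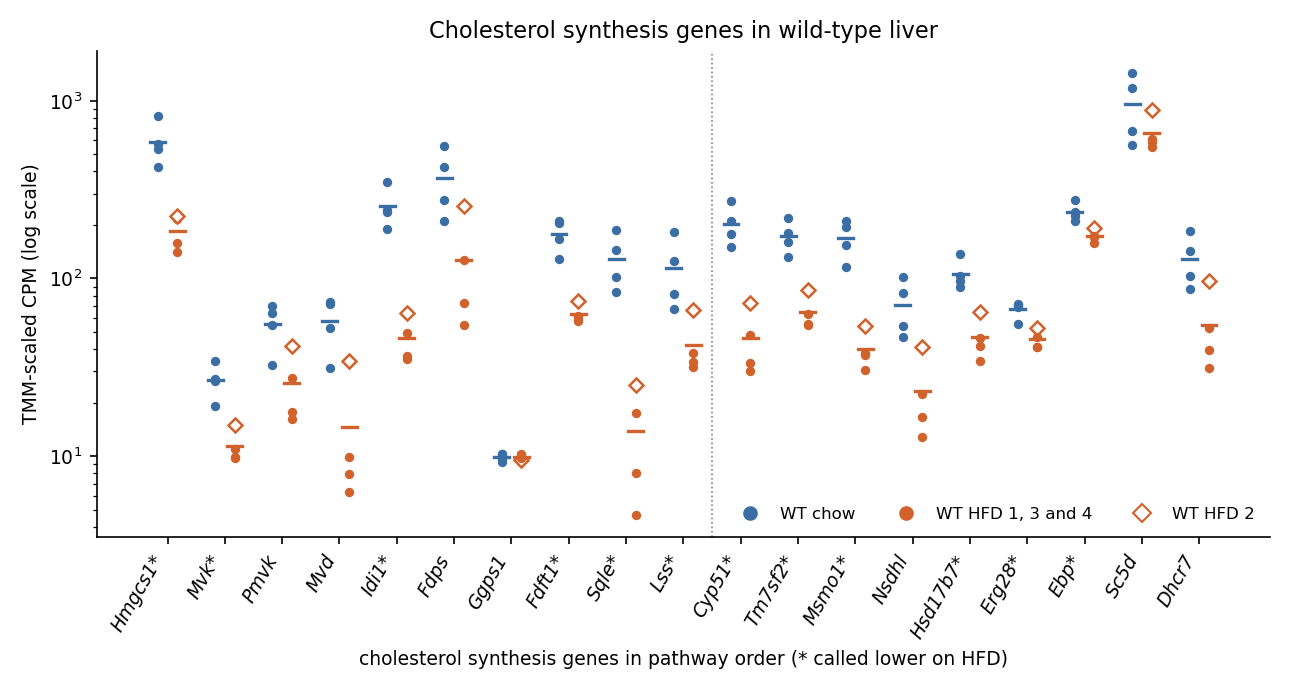
CPM on a log axis of 19 cholesterol synthesis genes in pathway order in the 8 WT libraries, with group means as short lines and a dotted line between the steps to lanosterol and those after it. Blue points are chow libraries, orange points HFD libraries, and the open diamond is WT HFD 2, the highest HFD library for most genes. An asterisk marks the 12 genes called lower.

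Srebf2, Scap and Stard4, from the list of SREBP control and lipoprotein uptake, were called lower. Srebf2, which encodes SREBP-2 (chromosome 15, 82147181 to 82205379, plus strand), measured 129, 89.8, 114 and 100.2 CPM in the chow libraries and 62.4, 61.8, 64.3 and 61.2 CPM in the HFD libraries (log2 fold change -0.79, SE 0.105, adjusted p = 0.000425). Its HFD values lay close together and all below chow. Scap, the SREBP escort, measured 154, 159.6, 244 and 192 CPM on chow and 125, 112, 122 and 118 CPM on HFD (log2 fold change -0.65, SE 0.122, adjusted p = 0.00759). Stard4, a cytosolic sterol carrier, fell from 173 ± 33 to 106 ± 7.35 CPM (log2 fold change -0.71, SE 0.12, adjusted p = 0.0038). Both were without overlap, and these 3 calls held in every alternative.

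Of 16 genes of SREBP control and lipoprotein uptake these 3 fell and 1 rose. Srebf1, whose product drives fatty acid synthesis and which is itself an LXR target, was the one that rose. It stood at 416, 479.5, 996 and 947 CPM on chow and 1316, 1619, 1292 and 1463 CPM on HFD (log2 fold change 1.0, SE 0.244, adjusted p = 0.0443). The diets did not overlap, but WT chow 1 and 2 were low beside WT chow 3 and 4, and the call was lost without WT chow 1 or 2, any one of WT HFD 1 to 4 or any one of LKO HFD 1 to 4 (adjusted p 0.0557 to 0.102). Insig1, which retains SCAP, measured 482, 511, 1194 and 1056 CPM on chow and 340, 549, 242 and 285 CPM on HFD and did not pass (log2 fold change -1.20, adjusted p = 0.052). WT HFD 2 lay within its chow range, and without that library Insig1 passed (log2 fold change -1.488, adjusted p = 0.0167).

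Abcg5 and Abcg8, which pair into the transporter that moves sterols into bile, rose. Abcg5 (chromosome 17, 84658234 to 84683011, minus strand) measured 81.9, 60.1, 75.7 and 91.2 CPM in the chow libraries and 374, 308, 311 and 320.5 CPM in the HFD libraries (log2 fold change 2.09, SE 0.176, adjusted p = 5.36e-06). Its partner Abcg8 (chromosome 17, 84676302 to 84700333, plus strand) measured 90.5, 72.3, 91.6 and 98.5 CPM on chow and 404, 270.3, 299 and 317 CPM on HFD (log2 fold change 1.87, SE 0.155, adjusted p = 5.36e-06). For both genes the lowest HFD library was far above the highest chow library, and WT HFD 1 was the highest. The annotated genes share 6710 bases on opposite strands, and whether counting used strand is not given in the sources used here, so part of their reads could have been assigned to either. Of 12 sterol exporters and LXR targets these were the 2 called, and 11 of the 12 had a positive log2 fold change (median 0.417). The HFD libraries stood wholly above chow for 4 of the 12 and wholly below for 1, against 4.46% and 5.06% of all genes. In the alternatives between 2 and 4 members were called higher and up to 1 lower. Among the members with a positive value that were not called, Abcg1, another cholesterol exporter, had a log2 fold change of 0.79 (adjusted p = 0.0779). Lpcat3, which remodels phospholipids, had 0.49 (adjusted p = 0.062), and Abca1, which loads HDL, 0.36 (adjusted p = 0.248).

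A further 2 genes of sterol movement rose. Gramd1b, a protein that carries cholesterol from the plasma membrane to the endoplasmic reticulum, measured 2.51, 4.95, 4.47 and 3.04 CPM on chow and 13.4, 12.7, 12.2 and 16.3 CPM on HFD (log2 fold change 1.86, SE 0.164, adjusted p = 6.59e-06). Rnf145, a ubiquitin ligase of sterol control, measured 22.7, 27.4, 25.4 and 29.3 CPM on chow and 41.5, 39.7, 43.1 and 46.2 CPM on HFD (log2 fold change 0.70, SE 0.11, adjusted p = 0.00195). Neither overlapped between the diets, and both calls held in every alternative. Pltp, the phospholipid transfer protein, was outside the list of 12 sterol exporters and LXR targets, so its fall is not in the counts of that list. It went from 217 ± 80.9 to 72.8 ± 18 CPM (log2 fold change -1.58, SE 0.308, adjusted p = 0.015), with adjusted p = 0.0564 without WT HFD 3.

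In bile acid synthesis, which uses up cholesterol, 1 of 17 genes rose and 2 fell (2 rose without LKO chow 2, LKO chow 4 or WT HFD 1). Cyp7b1, the oxysterol hydroxylase of the alternative pathway and a male-biased gene, measured 18.5, 15.6, 18.9 and 18.6 CPM on chow and 22.1, 26, 28.8 and 28.5 CPM on HFD (log2 fold change 0.56, SE 0.102, adjusted p = 0.00636). Cyp39a1, which hydroxylates 24-hydroxycholesterol, measured 42.2, 39.5, 40.4 and 34.7 CPM on chow and 18.6, 16, 20.7 and 17.1 CPM on HFD (log2 fold change -1.11, SE 0.204, adjusted p = 0.00759), with no overlap. The other gene that fell, Cyp27a1 (sterol 27-hydroxylase, log2 fold change -0.32, adjusted p = 0.0339), lost its call without WT chow 2, 3 or 4, any one of WT HFD 1 to 4, or LKO HFD 1 or 4 (adjusted p 0.0505 to 0.0883). Cyp7a1, the rate-limiting enzyme of the classical pathway, stood at 170, 112, 189.6 and 115 CPM on chow and 164, 280.5, 265 and 472 CPM on HFD and did not pass (log2 fold change 1.01, adjusted p = 0.0852). WT HFD 4 was its highest library, and WT HFD 1 lay within the chow range. Of 17 bile acid transporters and FXR targets 1 fell (2 without WT chow 2, LKO chow 1, LKO chow 3, LKO chow 4 or WT HFD 3): Abcb11, the bile salt export pump, went from 1049 ± 93.2 to 722 ± 35.4 CPM (log2 fold change -0.54, SE 0.103, adjusted p = 0.00905).

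Fatty acid genes changed in few members. In de novo lipogenesis none of 16 genes was called by edgeR, DESeq2 or limma voom, and 1 had an unadjusted p below 0.05 in edgeR. Fasn, fatty acid synthase, chosen after its values were seen, stood at 809.9, 1939, 5377 and 3408 CPM on chow and 1480, 6276, 2232 and 1870 CPM on HFD (log2 fold change 0.04, SE 0.565). Scd1, the stearoyl-CoA desaturase, chosen in the same way, stood at 5126, 24450, 28830 and 23860 CPM on chow and 30980, 43390, 32610 and 25760 CPM on HFD (log2 fold change 0.69, adjusted p = 0.483). The spread within a diet was wide for these 2 genes: WT chow 1 was the lowest library for both, and WT HFD 2 the highest. Without WT HFD 2 the log2 fold changes were -0.63 for Fasn and 0.53 for Scd1, and neither passed (adjusted p = 0.675 and 0.68).

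Lipid storage and oxidation had a few risers. Acaa1b, a peroxisomal thiolase and a classical PPAR-alpha target, measured 1229, 1483, 963 and 1617 CPM on chow and 2867, 2883, 2504 and 2782 CPM on HFD (log2 fold change 1.06, SE 0.15, adjusted p = 0.000818). It has a close paralog, Acaa1a, with which the counting could share reads. Of 35 genes of fatty acid oxidation 2 rose and none fell. The second was Ehhadh, the peroxisomal bifunctional enzyme, from 461 ± 51.6 to 716 ± 111 CPM (adjusted p = 0.0161, and 0.0545 to 0.0591 without WT chow 1, WT HFD 1 or WT HFD 4). Fabp2, the intestinal-type fatty acid binding protein, measured 62.9, 71, 43.6 and 49.5 CPM on chow and 130.5, 106, 120.1 and 101 CPM on HFD (log2 fold change 1.01, SE 0.198, adjusted p = 0.012), without overlap. Summed over Fabp2, Lgals4 and Vil1, gut markers ran from 48.89 to 83.91 CPM on chow and from 108.3 to 140.3 CPM on HFD, a sum in which Fabp2 was the larger part. The part of gut cells in it was not tested.

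Plin4, a perilipin that coats lipid droplets, measured 6.8, 6.83, 4.25 and 2.85 CPM on chow and 34, 15.9, 26.9 and 14.2 CPM on HFD (log2 fold change 2.13, SE 0.409, adjusted p = 0.0146). Pparg, the nuclear receptor that promotes lipid storage, measured 11.3, 13.2, 14.8 and 17.7 CPM on chow and 23, 24.4, 21.8 and 20.9 CPM on HFD (log2 fold change 0.66, SE 0.137, adjusted p = 0.0165). Neither overlapped, but the call of Plin4 was lost without WT chow 3 (adjusted p = 0.0506) and that of Pparg without WT chow 1 (adjusted p = 0.0513). Cidec, which fuses droplets, stood at 2.1, 3.23, 2.31 and 2.08 CPM on chow and 8.74, 7.92, 7.26 and 6.55 CPM on HFD, without overlap and without a call (log2 fold change 1.64, adjusted p = 0.0597). The adipocyte markers Adipoq, Lep and Retn summed to between 0 and 0.699 CPM on chow and between 0.0481 and 2.034 CPM on HFD. They were highest in WT HFD 4. The part of adipocytes in the Plin4 and Cidec values was not tested.

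Major urinary proteins are pheromone carriers made in the liver and usually more abundant in males. Of 26 Mup genes and pseudogenes tested 10 rose and none fell, 25 had a positive log2 fold change (also under both other scalings) and the median was 1.04. The number called was 6 without WT chow 4, where Mup-ps10, Mup16, Mup19 and Mup20 were not called, and between 7 and 13 without any other 1 library. For 19 of them every HFD library was above every chow library. Mup17 (chromosome 4, 61591929 to 61595871, minus strand) measured 7.26, 8.89, 5.49 and 8.36 CPM in the chow libraries and 85.1, 147, 59.3 and 75.1 CPM in the HFD libraries (log2 fold change 3.60, SE 0.349, adjusted p = 6.88e-05). Mup15 measured 4.25, 9.68, 5.76 and 5.6 CPM on chow and 38.9, 92.5, 23.2 and 31 CPM on HFD (log2 fold change 2.86, SE 0.439, adjusted p = 0.00346). Mup22, an abundant member chosen after its values were seen, measured 2431, 1896, 1747 and 2007 CPM on chow and 4218, 4684, 5054 and 5963 CPM on HFD (log2 fold change 1.30, SE 0.239, adjusted p = 0.00759). Together the 26 genes summed to between 3573.5 and 3965.9 CPM on chow and between 6768 and 9020.9 CPM on HFD. Mup genes are near-identical copies, so the split of reads between them is uncertain and the sum is the safer value.

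Of 22 male-biased liver genes, a list that also holds Mup20, 4 rose and none fell (median log2 fold change 0.291), and 4 of 28 female-biased genes fell and none rose (median -0.589). Cyp2d9, a male-biased steroid hydroxylase, measured 11, 6.25, 7.48 and 11.7 CPM on chow and 18.4, 29.9, 24 and 27 CPM on HFD (log2 fold change 1.45, SE 0.227, adjusted p = 0.00256). Elovl3, a fatty acid elongase, measured 1.38, 1.38, 0.915 and 1.21 CPM on chow and 6.44, 4.38, 2.42 and 3.66 CPM on HFD (log2 fold change 1.77, SE 0.3, adjusted p = 0.0038). Cyp7b1, given above, and Mup20 were the others that rose, and Mup20 (log2 fold change 1.81, adjusted p = 0.0305) lost its call without any one of WT chow 1 to 4 or without WT HFD 2 or 3 (adjusted p 0.0579 to 0.0907). Both Cyp2d9 and Elovl3 stayed at low levels without overlap between the diets. On the female-biased side, Cyp3a44 measured 88.2, 86.9, 57.5 and 45.9 CPM on chow and 18.8, 12.2, 11.7 and 12.8 CPM on HFD (log2 fold change -2.33, SE 0.301, adjusted p = 0.000728). Slc22a26, an organic anion transporter, measured 214, 207, 198 and 194 CPM on chow and 78.2, 52.4, 57.8 and 90.3 CPM on HFD (log2 fold change -1.54, SE 0.288, adjusted p = 0.0107), and Abcd2, a peroxisomal transporter of very long-chain fatty acids, fell from 99.8 ± 14.1 to 62.3 ± 9.65 CPM (log2 fold change -0.68, SE 0.137, adjusted p = 0.0139). None of these 3 overlapped. The fourth that fell was Prlr, the prolactin receptor, at an adjusted p of 0.0459, which became 0.0504 to 0.128 without WT chow 1, 3 or 4, WT HFD 1, 2 or 3 or any one of LKO HFD 1 to 4. All animals were female, so these values compare diets and not sexes.

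Among 42 genes of xenobiotic metabolism 2 rose and 3 fell (Cyp2b10, Cyp3a44 and Cyp1a2, of which the last lost its call in 13 of 25 alternatives). Cyp3a11, the main inducible CYP3A enzyme and a target of the receptor PXR, measured 839, 620.1, 778 and 809 CPM on chow and 2073, 1884, 1608 and 1656 CPM on HFD (log2 fold change 1.25, SE 0.13, adjusted p = 4.25e-05). Cyp3a44 of the same cluster fell, as given above, and reads of these similar genes may be divided between them. Fmo5, a flavin monooxygenase, measured 484, 483, 596 and 499 CPM on chow and 767, 928, 808 and 842 CPM on HFD (log2 fold change 0.70, SE 0.0897, adjusted p = 0.000318). Cyp2b10, the classical target of the receptor CAR, measured 16.9, 21, 26.9 and 36.3 CPM on chow and 4.9, 3.98, 2.42 and 6.82 CPM on HFD (log2 fold change -2.48, SE 0.311, adjusted p = 0.000573). Every chow library of Cyp2b10 was far above the highest HFD library. In a separate list of 36 glutathione transferases, sulfotransferases and glucuronosyltransferases 1 fell and none rose (median log2 fold change -0.0686). The number that fell was 2 without WT chow 4 or LKO chow 1, 2 or 3. Sult1a1, a phenol sulfotransferase and not one of the 42 genes above, fell from 374 ± 48.3 to 229 ± 30.6 CPM (log2 fold change -0.71, SE 0.124, adjusted p = 0.00466). Calls of Cyp3a11, Fmo5, Cyp2b10 and Sult1a1 held in every alternative.

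Of 23 markers of lipid-associated macrophages, cells that gather around fat-laden hepatocytes, 7 rose on HFD and none fell, and the median log2 fold change was 0.685. In bulk tissue more cells of a type and more RNA per cell cannot be told apart. The count was 4 without WT chow 4. Gpnmb, a glycoprotein of lipid-loaded phagocytes, measured 0.563, 0.838, 1.02 and 0.628 CPM in the chow libraries and 1.97, 4.72, 6.01 and 3.57 CPM in the HFD libraries (log2 fold change 2.41, SE 0.331, adjusted p = 0.000608). Mmp12, the macrophage elastase, measured 1.59, 1.34, 2.21 and 1.16 CPM on chow and 5.72, 7.08, 16.4 and 6.78 CPM on HFD (log2 fold change 2.52, SE 0.393, adjusted p = 0.00221). Lpl, lipoprotein lipase, measured 12.4, 23.1, 18.7 and 15 CPM on chow and 40.9, 34.3, 46 and 42.6 CPM on HFD (log2 fold change 1.24, SE 0.208, adjusted p = 0.00427). Each of the 3 was without overlap, and WT HFD 3 was the highest library for all of them. Lgals3, galectin-3, rose from 5.53 ± 1.24 to 10.8 ± 1.1 CPM (log2 fold change 0.96, SE 0.194, adjusted p = 0.0143), with adjusted p = 0.0502 without WT chow 4.

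General macrophage markers were not called. Of 23 monocyte and macrophage markers none passed in edgeR or limma voom and 2 passed in DESeq2, while 8 had an unadjusted p below 0.05. Of the 23, 21 had a positive log2 fold change (22 under upper-quartile scaling) and the median was 0.523. Their summed CPM was 268, 544, 336 and 259 in chow libraries 1 to 4 and 546, 385, 438 and 497 in HFD libraries 1 to 4. WT chow 2 was thus as high as the HFD libraries. The 5 defining Kupffer cell markers summed to between 175.6 and 416.2 CPM on chow and between 258.7 and 403.1 CPM on HFD, and none was at 0. Of the whole list of 17 Kupffer cell markers 13 had a positive log2 fold change, the median was 0.435, and 1 rose: Il18bp, which binds interleukin-18 and is named after its values were seen (log2 fold change 0.51, SE 0.124, adjusted p = 0.039). Il18bp was not called without WT chow 1, 3 or 4, without any one of WT HFD 1 to 4, or without LKO HFD 1 or 4. None of 17 T and NK cell markers, 15 B and plasma cell markers or 4 neutrophil markers was called by edgeR, DESeq2 or limma voom, with 1, 5 and 0 at an unadjusted p below 0.05. The neutrophil list held 12 genes, and 8 of them, Ly6g, Mpo and Elane included, were not tested. Of 23 endothelial markers none was called by edgeR and 1 by each of the other tools, with 2 at an unadjusted p below 0.05, while 21 of the 23 had a positive log2 fold change (22 under upper-quartile scaling) and the median was 0.366. Of 16 class II antigen presentation genes 2 rose, H2-Eb1 and H2-Ab1, from 34 ± 5.16 to 62.7 ± 7.29 CPM and from 35.3 ± 7.22 to 63.8 ± 9.56 CPM (adjusted p = 0.0209 and 0.0378). Neither was called without WT chow 1, 3 or 4 or WT HFD 1 or 3, and H2-Ab1 was lost also without WT HFD 4 or LKO HFD 1 (highest adjusted p 0.0712 and 0.103).

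Of 38 stellate cell and matrix genes 5 rose and none fell, 35 had a positive log2 fold change and the median was 0.512. The number called was 3 without WT chow 1 and 2 without WT chow 4, WT HFD 1 or WT HFD 3. Col3a1 measured 20.9, 29.6, 33.4 and 23.4 CPM on chow and 70, 46.5, 60 and 42.5 CPM on HFD (log2 fold change 1.03, SE 0.176, adjusted p = 0.00427), and Col1a2 measured 10.1, 11.9, 14.4 and 12.3 CPM on chow and 32.8, 24.1, 24.4 and 17.1 CPM on HFD (log2 fold change 1.01, SE 0.195, adjusted p = 0.01). Neither overlapped, with WT HFD 1 highest and WT HFD 4 lowest in the HFD group for both. Col1a1 rose from 8.99 ± 2.28 to 20.4 ± 5.9 CPM (log2 fold change 1.18, SE 0.248, adjusted p = 0.0204), and was not called without WT chow 4, WT HFD 1 or WT HFD 3 (adjusted p 0.0609 to 0.0678). Endothelial markers, of which 21 of 23 had a positive log2 fold change (median 0.366), summed to 426 to 864 CPM on chow and to 456 to 985 CPM on HFD, with WT chow 2, WT HFD 1 and WT HFD 4 highest. The part of other cell types in the collagen values was not tested.

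**Figure D3:**
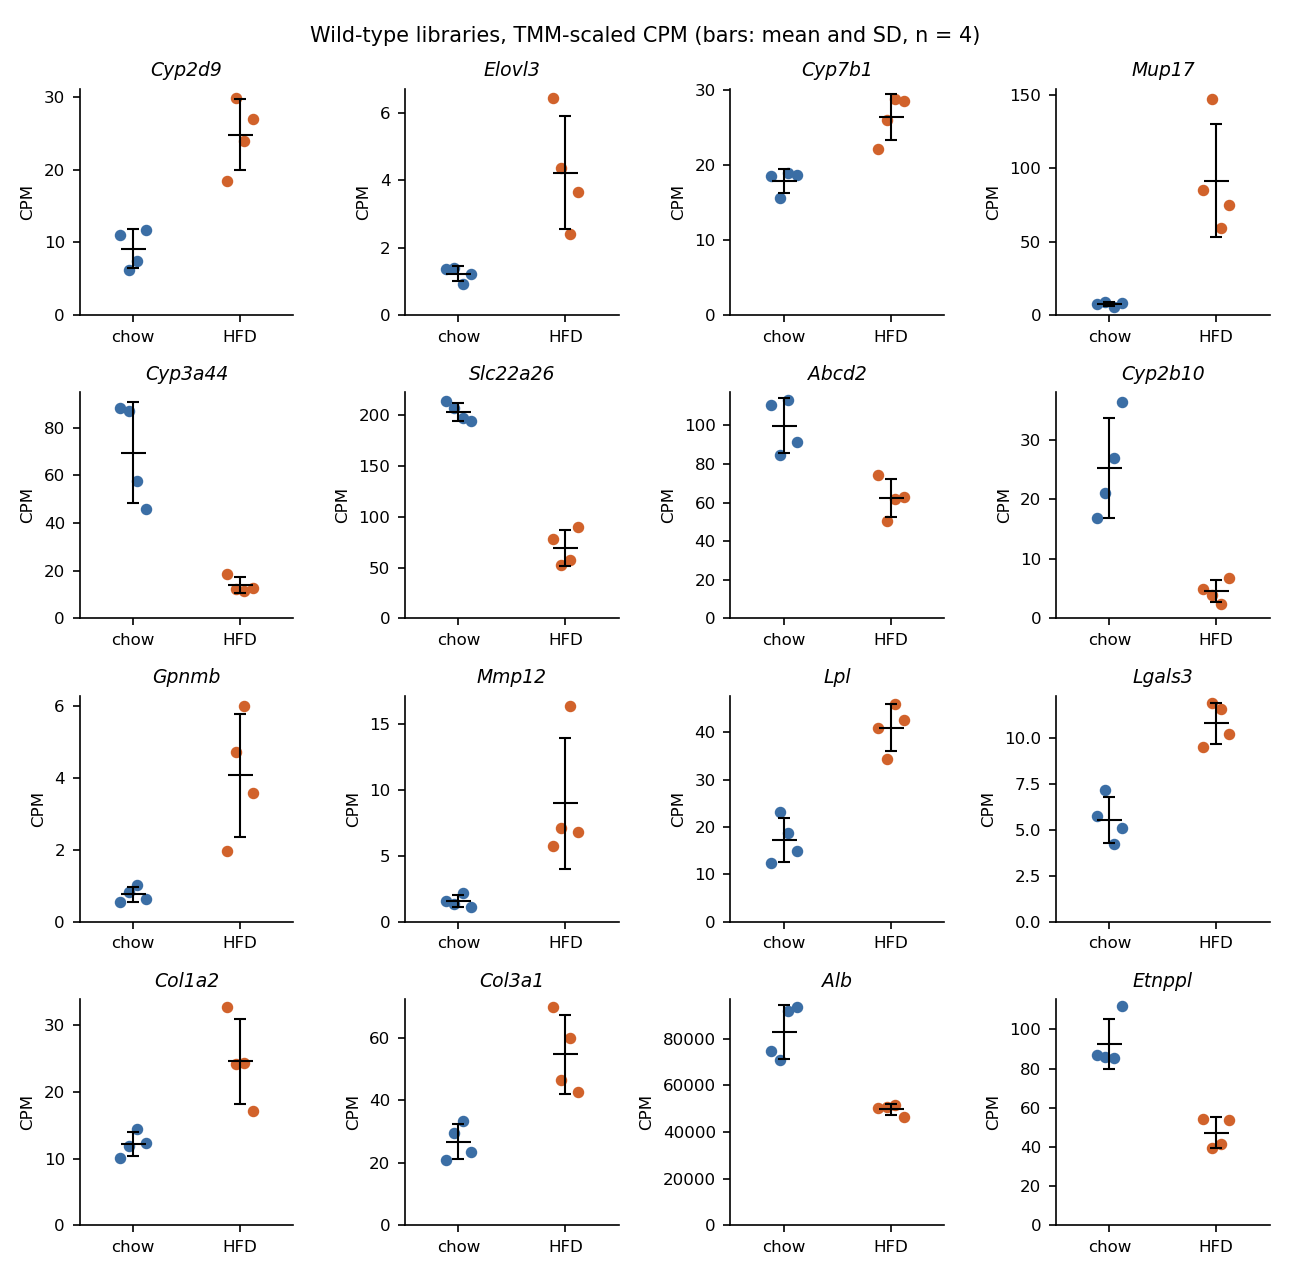
CPM of 16 genes in each WT library, with the mean and SD of the 4 libraries of a diet, each axis starting at 0. The top row shows 3 male-biased genes and Mup17, the second row 3 female-biased genes and Cyp2b10, the third row macrophage markers, and the last row 2 collagens, Alb and Etnppl. In every panel the chow and HFD libraries are apart.

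Several secreted and periportal hepatocyte products were lower on HFD. Alb, the gene of albumin and one of the most abundant transcripts (chromosome 5, 90460897 to 90476602, plus strand), measured 74720, 71050, 91990 and 93810 CPM in the chow libraries and 50330, 50820, 51390 and 46320 CPM in the HFD libraries (log2 fold change -0.74, SE 0.114, adjusted p = 0.00181). Of 29 periportal and urea cycle genes 6 fell, Alb among them, and none rose (median log2 fold change -0.181). Of the 6, 3 remained called without WT chow 1, WT chow 2 or WT HFD 3. Etnppl, a phospholyase of phosphoethanolamine, measured 87.1, 85.9, 85.1 and 112 CPM on chow and 54.3, 39.4, 41.3 and 53.6 CPM on HFD (log2 fold change -0.97, SE 0.17, adjusted p = 0.00506). Agxt, which detoxifies glyoxylate, measured 447, 312, 282 and 387 CPM on chow and 206, 201, 227 and 257 CPM on HFD (log2 fold change -0.68, SE 0.126, adjusted p = 0.00759). The diets did not overlap for Alb, Etnppl or Agxt. Pck1, the gluconeogenic enzyme PEPCK, fell from 1157 ± 379 to 519 ± 193 CPM (adjusted p = 0.0321, and 0.0624 to 0.0881 without WT chow 1 or 2 or WT HFD 3 or 4).

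In the acute phase list 4 of 26 genes fell and 1 rose, and in complement and coagulation 4 of 39 fell and none rose. Most WT libraries, and not one in particular, lowered these counts when left out. In the first list the count of falls was 1 or 2 without any one of WT chow 1, 2 or 3 or WT HFD 1 to 4. In the second it was 1 or 2 without any one of WT chow 1, 3 or 4 or WT HFD 1 to 4. The gene that rose, Orm3 (adjusted p = 0.0453), lost its call in 14 of 25 alternatives. The calls of Apcs and Mbl2 held in every alternative. Apcs, serum amyloid P component, measured 84.6, 108, 104 and 84.8 CPM on chow and 57.4, 65.7, 65 and 51.9 CPM on HFD (log2 fold change -0.67, SE 0.118, adjusted p = 0.00508). Mbl2, a mannose-binding lectin, measured 422, 388, 355 and 499 CPM on chow and 282, 269.8, 264 and 299 CPM on HFD (log2 fold change -0.58, SE 0.0959, adjusted p = 0.00318). Neither overlapped between the diets.

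Other programmes gave no call in edgeR, namely the unfolded protein response (21 genes), cytosolic heat shock (18), NRF2 targets (21), nuclear oxidative phosphorylation (34), mitochondrially encoded genes (13), ribosomal proteins (32), immediate early genes (20) and SR splicing factors and kinases (28). At an unadjusted p below 0.05 they held, in that order, 10, 4, 4, 1, 0, 10, 3 and 1 genes. DESeq2 called 7 ribosomal protein genes and 1 of the unfolded protein response, and limma voom 4 ribosomal protein genes and 1 NRF2 target, all of them lower. All 21 unfolded protein response genes and all 32 ribosomal protein genes had a negative log2 fold change, with medians of -0.283 and -0.164, and did so under both other scalings. Of 40 interferon-stimulated genes 34 had a positive log2 fold change (median 0.315). The 2 called among them were not called without WT chow 1, 2 or 3, LKO chow 4, WT HFD 2 or 3 or LKO HFD 2 or 4.

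Some of the largest changes fell outside these groups. Smpd3, a neutral sphingomyelinase, measured 1.43, 1.34, 1.99 and 1.16 CPM on chow and 8.07, 10.9, 7.87 and 4.38 CPM on HFD (log2 fold change 2.40, SE 0.259, adjusted p = 6.88e-05). Sema5b, a semaphorin, measured 3.84, 5.03, 1.72 and 1.4 CPM on chow and 19.1, 13.8, 10.3 and 14.2 CPM on HFD (log2 fold change 2.24, SE 0.321, adjusted p = 0.00108). Both were well apart between the diets. Clic3, of the chloride intracellular channel family, measured 5.63, 5.95, 4.09 and 2.12 CPM on chow and 0.576, 0.443, 0.605 and 0.542 CPM on HFD (log2 fold change -3.02, SE 0.369, adjusted p = 0.000225). Ptgds, a prostaglandin D2 synthase, measured 5.99, 5.24, 3.07 and 4.59 CPM on chow and 0.961, 1.48, 1.09 and 0.994 CPM on HFD (log2 fold change -2.06, SE 0.324, adjusted p = 0.00196). These 2 genes are neighbours on chromosome 2, with 7932 bases between them, and both were low in every HFD library. Enho, the gene of the secreted peptide adropin, measured 12.7, 2.26, 5.06 and 4.68 CPM on chow and 1.2, 1.13, 0.928 and 1.17 CPM on HFD (log2 fold change -2.47, SE 0.401, adjusted p = 0.00419), and WT chow 1 was far above the other chow libraries. Slc13a2, a citrate transporter, fell from 3.01 ± 0.872 to 0.764 ± 0.222 CPM (log2 fold change -1.97, SE 0.327, adjusted p = 0.00323).

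The same diet comparison in LKO liver uses separate libraries. There 320 genes were called (2.22%), 165 higher (1.14%) and 155 lower (1.07%). That count ranged from 111 without LKO HFD 1 to 659 without LKO chow 2, and was 117 to 196 without LKO chow 3 or 4 or LKO HFD 2 or 4. Of the 140 genes that rose in WT, 40 were also called higher in LKO (28.6% of the WT list and 24.2% of the LKO list), and of the 154 that fell, 44 were also called lower (28.6% and 28.4%). None was called the opposite way, and 131 and 137 kept the sign. The median log2 fold change of the genes that rose in WT was 0.968 in WT and 0.47 in LKO, and of those that fell -0.706 and -0.305, for genes chosen by their WT values. In cholesterol synthesis 11 of the 19 genes fell in LKO (median -1.14). Idi1, for example, had a log2 fold change of -2.46 in WT and -1.59 in LKO (adjusted p = 0.00226), and Abcg5 2.09 and 1.32 (adjusted p = 0.00113).

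**Figure D4:**
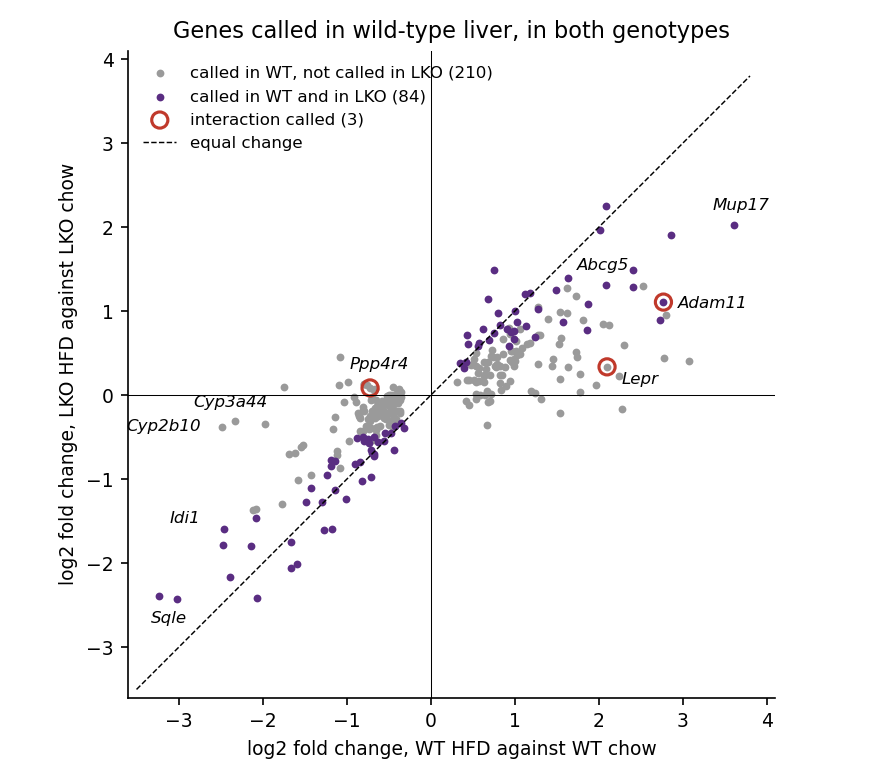
Log2 fold change on HFD in WT (horizontal) and in LKO (vertical) of the 294 genes called in WT. The 84 purple points were also called in LKO, all on the same side, 3 circled genes had a called difference between the genotypes, and the dashed line marks equal change. Most points lie between the dashed line and the horizontal axis, and they were chosen on the horizontal value.

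Whether the diet response differed between genotypes was tested directly by the interaction. It was called for 3 of 14433 genes (0.0208%, of which 2 higher in WT, 0.0139%, and 1 lower, 0.00693%), with 1265 at an unadjusted p below 0.05, and all 3 were among the genes called in WT. Adam11, of the ADAM family of membrane proteins (chromosome 11, 102761439 to 102780262, plus strand), measured 15.7, 13.6, 21.7 and 19.1 CPM in WT on chow and 107, 101, 123 and 147 CPM in WT on HFD (log2 fold change 2.77, SE 0.198, adjusted p = 1.75e-06). In LKO it measured 111, 53.1, 95.4 and 80.9 CPM on chow and 188, 182, 175 and 189 CPM on HFD (log2 fold change 1.11, SE 0.185, adjusted p = 0.00446). Every LKO chow library was above every WT chow library for Adam11, and the log2 fold change in WT exceeded that in LKO by 1.66 (SE 0.264, adjusted p = 0.0413).

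Lepr, the leptin receptor (chromosome 4, 101717404 to 101815352, plus strand), measured 4.04, 5.74, 7.8 and 5.75 CPM in WT on chow and 31.3, 22.7, 23.8 and 22.1 CPM in WT on HFD (log2 fold change 2.10, SE 0.205, adjusted p = 2.73e-05). Its LKO values were 21.9, 16.2, 11.4 and 14.2 CPM on chow and 22.1, 20.9, 16.3 and 21.4 CPM on HFD (log2 fold change 0.34, SE 0.191, adjusted p = 0.375), and the difference of the diet effects was 1.76 (SE 0.278, adjusted p = 0.0413). Ppp4r4, a regulatory subunit of protein phosphatase 4, measured 20.7, 22, 23.6 and 22 CPM in WT on chow and 13.1, 14.1, 12.4 and 13.9 CPM in WT on HFD (log2 fold change -0.72, SE 0.0915, adjusted p = 0.000282). In LKO it measured 22.8, 20.4, 26.8 and 23.8 CPM on chow and 25.8, 25.9, 22.6 and 25.3 CPM on HFD, and the difference of the diet effects was -0.81 (SE 0.128, adjusted p = 0.0413). For Lepr the LKO chow libraries already stood above WT chow, whereas for Ppp4r4 WT on HFD alone was low. The WT diet calls of Adam11, Lepr and Ppp4r4 held in every alternative. Their interaction calls did not: leaving out 1 of 16 libraries kept Adam11 only without LKO chow 1 or 2, Lepr only without WT chow 3 or LKO chow 1 or 3, and Ppp4r4 only without LKO chow 1 or 3 or LKO HFD 3, with adjusted p up to 0.138, 0.137 and 0.137 on leaving out another library.

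Other WT changes were absent from the calls in LKO without a called difference. Dct, dopachrome tautomerase, measured 14.3, 17.4, 10.1 and 11 CPM in WT on chow and 3.41, 4.18, 3.63 and 4.56 CPM in WT on HFD (log2 fold change -1.74, SE 0.22, adjusted p = 0.000265), and 3.08, 1.5, 2.28 and 2.1 CPM in LKO on chow and 2.04, 2.94, 1.77 and 2.8 CPM in LKO on HFD. The difference of the diet effects was -1.84 on the log2 scale (SE 0.323, adjusted p = 0.0841). Cyp2b10 had a log2 fold change of -0.38 in LKO (adjusted p = 0.503), with an adjusted p of 0.232 for the difference. For Pla1a, a phosphatidylserine phospholipase, the log2 fold changes were -0.67 in WT and 0.06 in LKO (adjusted p = 0.00271 and 0.811), with an adjusted p of 0.232 for the difference.

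**Figure D5:**
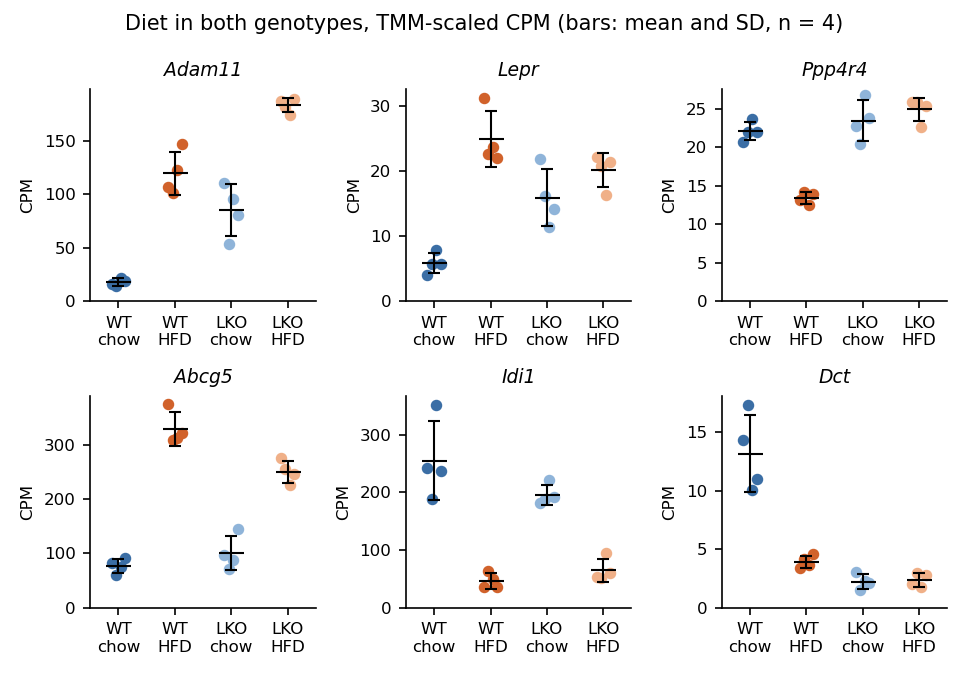
CPM of 6 genes in all 16 libraries, with the mean and SD of the 4 libraries of each group, axes starting at 0. Adam11, Lepr and Ppp4r4 had a called interaction, and Abcg5, Idi1 and Dct did not. Abcg5 rose and Idi1 fell on HFD in both genotypes, and Dct was low in LKO on either diet.

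Genes at 0 in any of the 16 libraries are outside the counts table and were read from the second deposited table. Of 328 such genes that passed the count filter 2 were called in WT (0.61%), 1 higher (0.305%) and 1 lower (0.305%). The one without overlap between the diets was Pla2g2d, a secreted phospholipase A2 of the spleen and dendritic cells, at 0.871, 1.09, 0.592 and 0.386 CPM on chow and 0.192, 0, 0.162 and 0.0452 CPM on HFD (log2 fold change -2.80, SE 0.647, adjusted p = 0.0339). At this level a library holds few reads of the gene, so the size of its fall is imprecise. Its call was lost without WT chow 1, 2 or 3 or WT HFD 2, 3 or 4 (adjusted p 0.0529 to 0.0937), and DESeq2 gave it no adjusted p. The 2 calls became 0 without WT chow 1 or WT HFD 3, 1 without WT chow 2 or 3, WT HFD 2 or 4 or LKO HFD 2 or 4, and 4 to 6 without WT chow 4, WT HFD 1 or LKO chow 2.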

How the data were processed

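The libraries are poly(A) RNA-seq of mouse liver (TRIzol, NEBNext Ultra II, NovaSeq, paired reads of 150 bases), per the labels' protocols. The deposited values are estimated counts per gene made by the authors: 51.05% of the values are whole numbers, and the submitters' processing notes name mm10, Bowtie2 and DESeq2 without versions. The counting tool, its annotation and its use of strand are not given in the sources used here. A counts table holds 15119 genes above 0 in all 16 libraries. A second table of 35712 genes, named for RPKM, holds the same estimated counts, with the chow columns 1 row low. After moving them up by 1 row, 15118 genes matched (relative tolerance 1e-06). The exception was Acat2, whose value for WT HFD 2 differs between the tables, and it was left out.

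Counts were rounded and tested with edgeR 4.0.16 (R 4.3.3): TMM scaling, filterByExpr, robust quasi-likelihood fit of all 16 libraries with 1 mean per group, contrasts for diet in WT, diet in LKO and their difference, and Benjamini-Hochberg adjustment over all genes with a threshold of 0.05. All groups share one estimate of the spread. The 20593 genes outside the counts table were fitted with the second table, and hold under 1% of all counts. Alternatives were DESeq2 1.42.0, limma 3.58.1 voom with quality weights, other scalings, other filters, the libraries of 1 genotype only, a replicate block and leaving out each library. The replicate numbers were not treated as pairs in the main fit. None of the labels used here gives a pairing, and 0 of the 4 correlations between WT chow and WT HFD libraries of the same number exceeded 0.1. Libraries of different numbers were not compared, so these correlations cannot settle whether same-numbered libraries share an origin. The scripts were tested on simulated data. Genes are named by a rule: the 15 largest rises and 15 largest falls among called genes without overlap and with a mean of at least 1 CPM in a WT group, from each gene list at most 6 genes of lowest p, the cholesterol synthesis genes listed, Arglu1, the 10 lowest interaction p-values among genes called in WT, and up to 5 rises and 5 falls outside the counts table. Other named genes were chosen after their values were seen. A few genes are not reported here and were left out of the lists. The members and gene lists were chosen with earlier results of these data known. Coordinates are from GENCODE M21 (GRCm38) and promoter windows from RefSeq.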

Additional observations from a re-analysis of the deposited data

Results flagged for a closer look

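Of 174 groups of 4 libraries examined for the genes named above, 12 held a library whose gap to the nearest other exceeded Dixon's 95% critical value. Chance alone flags about 1 in 20 groups. WT HFD 2 was the high library for Mvd (34.33 CPM), Sc5d (888.6), Lpcat3 (176.1) and Fasn (6276), where the other HFD libraries reached at most 9.93, 606.5, 154.4 and 2232 CPM. All 4 genes belong to sterol, fatty acid or phospholipid metabolism. Only named genes were examined, and many of these come from lists of lipid genes, so the shared theme follows in part from that choice. WT HFD 2 is the library that lay apart on the second principal component. In WT chow 2 Abcg1 was high (12.07 CPM) and Cyp7b1 low (15.55 CPM), and Arglu1 was high by a small amount (45.1 CPM against 39.5 to 40.4). The remaining 5 were Mmp12 in WT HFD 3 (16.38 CPM), Cyp3a44 in WT HFD 1 (18.83 CPM), Pla1a in WT HFD 1 (25.41 CPM), Fmo5 in WT chow 3 (596 CPM) and Etnppl in WT chow 4 (111.8 CPM). For Mmp12, Cyp3a44, Pla1a, Fmo5 and Etnppl the diets were still apart.

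The diet effect differed between WT and LKO in the interaction test for Adam11 (1.661 on the log2 scale), Lepr (1.76) and Ppp4r4 (-0.8085), each at an adjusted p of 0.0413 by edgeR.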

How the results depend on the processing

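The 294 calls of the WT diet comparison became 702 with DESeq2 and 484 with limma voom, and 155 to 359 on leaving out 1 library. No called gene changed sign in any of the 25 alternatives. The LKO comparison gave 783 calls with DESeq2, 2053 with voom, 188 with the LKO libraries alone and 111 to 659 on leaving out 1 library. The interaction gave 54 calls with DESeq2, 16 with voom, 0 at a mean count of at least 50 (lowest adjusted p 0.0565) and 0 to 9 on leaving out 1 library. Genes outside the counts table gave 8 calls with DESeq2, 6 with voom, 1 without a filter and 0 to 6 on leaving out 1 library. Upper-quartile scaling made 53.8% of the WT calls higher, against 47.6%. The causes were not tested. Of 2172 values of named genes under alternatives, 2030 kept direction and side of the threshold, 106 lost the call, 36 gained one and 0 reversed.

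With a replicate block the WT comparison gave 223 calls and the interaction 0, and 4 calls were made among genes outside the counts table. Same-numbered libraries of different groups correlated above 0.1 in 5 of 24 cases, with a median of -0.018. Whether the numbers pair the libraries cannot be told from this, as libraries of different numbers were not compared.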

Other observations

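Cell cycle genes had positive log2 fold changes in 25 of 27 members on HFD in WT liver, with a median of 0.652, but 1 passed the test (Mcm5). The number called was 0 without any one of WT chow 1 to 4, WT HFD 2 or 3 or LKO HFD 2 or 4, and 2 without LKO chow 1. They summed to between 226.3 and 311 CPM on chow and between 234.3 and 420.3 CPM on HFD, with WT HFD 2 highest. In the integrated stress response list 4 of 21 genes fell, among them Atf4, and 0 of the 4 remained called without WT chow 4, WT HFD 1 or WT HFD 3. B and plasma cell markers had a median log2 fold change of -0.365 and no call in edgeR, DESeq2 or limma voom (5 of 15 at an unadjusted p below 0.05 in edgeR).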
